A study of Mus musculus with 6 samples.

Results

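The muscle LIM protein genes Csrp1, Csrp2, Csrp3, Fhl1, Fhl2 and Fhl3 are described here in the ventricles of mice with extra miR-499. They are 6 of the 19938 genes measured, grouped by family membership. The family and the gene lists below were chosen with earlier results of these data known. Shares over all genes or probe sets are therefore given for scale and are not a blind test. Each gene was read from its brightest probe set that the array annotation pairs with exactly 1 gene symbol, and each of the 6 had 1 such probe set. WT were wild-type mice. TG-17 were their littermates carrying miR-499 behind the Myh6 (alpha-myosin heavy chain) promoter, which is active in heart muscle cells. The line was made in FVB/NCrl embryos and is the lower-expressing of the lines in the study, and all TG-17 mice come from this 1 line. Ventricles were taken at postnatal day 17 from 3 separate mice per group, each on 1 Affymetrix mouse gene array. The deposited values are log2 intensities, so a difference of 1 means that the intensity doubled, and a higher value of 1 gene than of another does not show more RNA of it. Array medians were 6.93 to 6.95 for WT and 6.89 to 6.91 for TG-17, and no array stood apart, with Pearson's r across probe sets at 0.990 or above for every pair.

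LIM domains are zinc-binding modules that hold proteins together. The Csrp proteins carry a pair of them and link actin filaments, alpha-actinin and, in the nucleus, transcription factors, while the Fhl proteins carry a longer row of them and sit at the sarcomere, where some bind titin, and in the nucleus as cofactors. Csrp3, also called muscle LIM protein, is a Z-disc protein of striated muscle whose loss causes dilated cardiomyopathy in mice, and Csrp1 and Csrp2 are best known from smooth muscle. Serum response factor (SRF), which binds CArG boxes, drives many genes of the actin cytoskeleton and works together with several LIM proteins.

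The transgene's product is shown first, because its seed, bases 2 to 8 in capitals, is the part of the microRNA that pairs with target messages. The mature sequence is from RefSeq, build GRCm38.p6, forward strand, chr2:155622893-155622913.
mmu-miR-499-5p: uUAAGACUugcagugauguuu
The Mir499 probe set checks the genotype labels. It read 5.48, 5.34 and 5.68 in the WT mice and 9.31, 9.33 and 8.87 in the TG-17 mice. The groups did not overlap, and the log2 difference was 3.67 ± 0.15 (SE, n = 3 per group), or 12.74-fold, with a limma adjusted p of 0.00772.

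RefSeq promoter windows, 250 bases before to 50 after a transcription start, were at hand for 5 of the 6 members, in 9 windows, and none for Csrp2. They are shown for the genes whose promoters carry a CArG box, and for Csrp3, which lay higher in TG-17 as Fhl1 did. Capitals mark a CArG box or, in Fhl2 window 1, a CArG box followed by a MEF2 box, the motif of the MEF2 muscle factors. All are build GRCm38.p6 and written 5′ to 3′ along the gene.
Fhl1, window 1, chrX:56779433-56779732, forward strand: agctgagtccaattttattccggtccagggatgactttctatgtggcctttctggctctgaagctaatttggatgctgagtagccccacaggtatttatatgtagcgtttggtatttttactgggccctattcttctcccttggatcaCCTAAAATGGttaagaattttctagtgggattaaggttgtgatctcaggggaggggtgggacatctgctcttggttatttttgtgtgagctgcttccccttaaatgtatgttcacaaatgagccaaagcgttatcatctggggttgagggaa
Fhl2, window 1, chr1:43196712-43197011, reverse strand: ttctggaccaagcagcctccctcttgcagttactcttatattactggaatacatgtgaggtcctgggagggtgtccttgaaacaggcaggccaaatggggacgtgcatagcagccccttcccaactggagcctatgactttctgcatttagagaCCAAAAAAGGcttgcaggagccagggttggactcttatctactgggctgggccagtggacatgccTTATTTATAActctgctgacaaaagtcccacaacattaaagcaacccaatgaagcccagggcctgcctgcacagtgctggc
Fhl2, window 2, chr1:43163912-43164211, reverse strand: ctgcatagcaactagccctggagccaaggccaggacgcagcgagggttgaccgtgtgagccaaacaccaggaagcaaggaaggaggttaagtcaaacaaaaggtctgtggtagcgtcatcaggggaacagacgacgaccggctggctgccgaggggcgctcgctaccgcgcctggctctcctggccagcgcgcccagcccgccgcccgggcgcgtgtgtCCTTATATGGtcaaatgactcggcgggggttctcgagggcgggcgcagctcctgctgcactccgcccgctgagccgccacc
Csrp3, window 1, chr7:48848002-48848301, reverse strand: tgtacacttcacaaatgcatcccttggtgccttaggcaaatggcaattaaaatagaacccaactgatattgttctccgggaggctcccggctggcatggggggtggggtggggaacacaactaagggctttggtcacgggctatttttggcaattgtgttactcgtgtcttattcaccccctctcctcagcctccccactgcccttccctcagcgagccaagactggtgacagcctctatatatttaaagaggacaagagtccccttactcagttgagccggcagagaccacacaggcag
The CArG box began at base -102 in Fhl1, at -96 in Fhl2 window 1 and at -31 in Fhl2 window 2, counted from the start site, and the MEF2 box of Fhl2 began at -31 without overlapping the CArG box. The letters of both motifs were searched on both strands. A CArG box was present in 535 of all 32851 promoter windows (1.63%) and a MEF2 box in 1047 (3.19%). The TEAD motif CATTCC, in 14.7% of all windows, and the Egr motif GCGTGGGCG, in 0.612%, were in no window of a member, and the shown Csrp3 window held none of these 4 motifs. A match is a string of letters and says nothing of binding.

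Of the 6 members, Csrp2 changed and the other 5 did not pass the test. Csrp2 fell in TG-17, by 1.37-fold. Fhl1 and Csrp3 read higher in every TG-17 mouse than in any WT mouse without passing it, and Csrp1, Fhl2 and Fhl3 overlapped between the groups. The test was limma over all 35556 probe sets, and a probe set counted as changed when its log odds of a difference, B, was above 0. At that limit 0.366% of all probe sets were called, 0.211% lower and 0.155% higher in TG-17 (75 and 55 probe sets, or 40 and 96 once each array was centred on its median). An adjusted p under 0.05 called 0.00562% of them, including Mir499 and no member. Groups not overlapping is a weaker mark, met by 11.3% of probe sets as higher and 12.1% as lower in TG-17 (12.2% and 13.6% of the 19938 genes), and so 2 members higher and 1 lower are set against those shares.

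Csrp2, on chromosome 10, encodes the smooth muscle LIM protein, which binds actin and alpha-actinin and can join SRF and GATA factors. It read 9.15, 9.12 and 9.19 in the WT mice and 8.67, 8.70 and 8.72 in the TG-17 mice. The groups did not overlap, and the mice within each group lay close together. The log2 means were 9.15 ± 0.036 in WT and 8.70 ± 0.025 in TG-17 (SD, n = 3 each). Csrp2 fell by 0.45 on the log2 scale (SE 0.049, 95% interval -0.57 to -0.34), which is 1.37-fold (1.26 to 1.49). Its B was 1.79, with a limma adjusted p of 0.167, and it was number 16 of all probe sets by p and number 51 from the bottom of the 19938 genes by log2 difference. Without TG-17 replicate 2 the difference was -0.46 and B was -0.11, below the limit.

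Csrp1, on chromosome 1, is the family member found in smooth muscle and many other tissues, and binds zyxin and alpha-actinin. It read 10.08, 9.96 and 10.07 in WT and 10.08, 10.06 and 10.01 in TG-17. The values of the groups interleaved, and the log2 difference of 0.012 (SE 0.058, 95% interval -0.13 to 0.15) took either sign with the scaling, being -0.043 after a second quantile normalization. The lower bound of the interval, -0.13, lies above the whole interval of Csrp2.

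Csrp3, on chromosome 7, read 12.42, 12.39 and 12.44 in WT and 12.59, 12.62 and 12.66 in TG-17. All TG-17 mice lay above all WT mice. The log2 difference was 0.21 (SE 0.049, 95% interval 0.094 to 0.33), or 1.16-fold, with a limma adjusted p of 0.225 and B at -1.57. With an intensity trend in the moderation B was 1.29, and with the prior share of changed probe sets set to 0.05 it was 0.02, so Csrp3 passed under those settings.

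**Figure D1:**
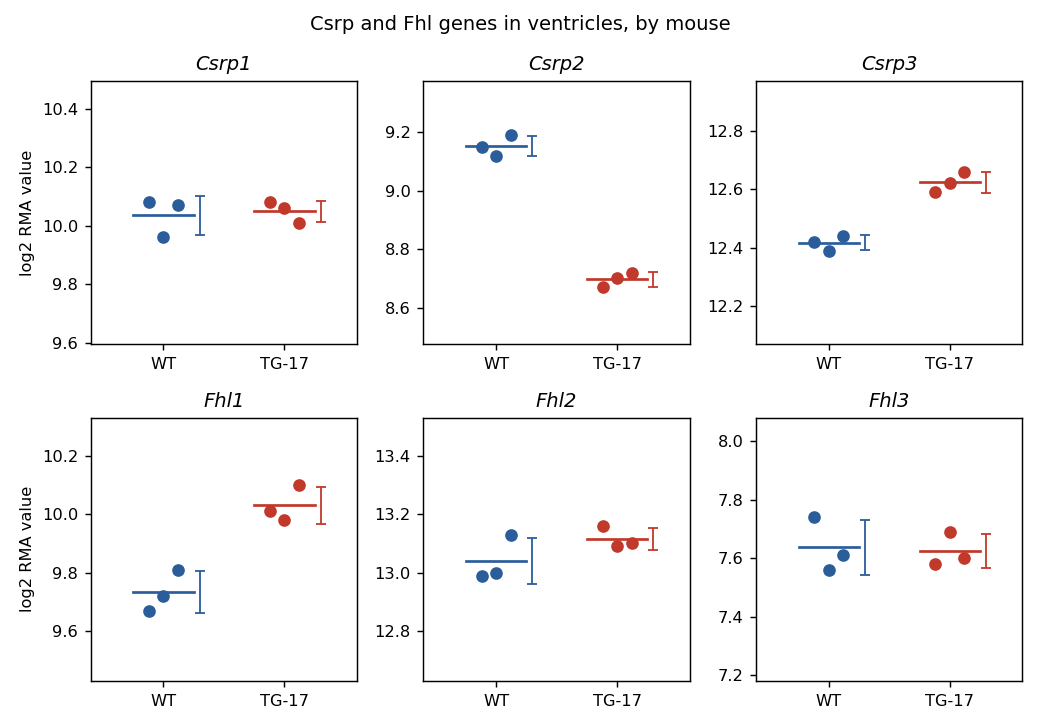
The log2 intensity of each member in every mouse, 1 panel per gene, with points for the 3 WT and the 3 TG-17 mice, a line at each group mean and a bar for ± 1 SD. Csrp2 lies lower in all TG-17 mice (8.67 to 8.72 against 9.12 to 9.19), Csrp3 and Fhl1 lie higher in all TG-17 mice, and the points of the other members overlap.

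Fhl1, on the X chromosome, is a sarcomere protein that binds the elastic part of titin and is mutated in inherited myopathies. It read 9.67, 9.72 and 9.81 in WT and 10.01, 9.98 and 10.10 in TG-17. No TG-17 mouse overlapped the WT range. The log2 difference was 0.30 (SE 0.063, 95% interval 0.15 to 0.45), or 1.23-fold, with a limma adjusted p of 0.224 and B at -1.17. Like Csrp3, Fhl1 passed with the intensity trend (B 0.09) and with the prior share of 0.05 (B 0.36).

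Fhl2, on chromosome 1, is abundant in heart, binds titin and is known as a cofactor of SRF and a brake on calcineurin. It read 12.99, 13.00 and 13.13 in WT and 13.16, 13.09 and 13.10 in TG-17. WT replicate 3 lay inside the TG-17 range, and the log2 difference was 0.076 (SE 0.060, 95% interval -0.068 to 0.22), with a limma adjusted p of 0.567. Fhl3, on chromosome 4, is best known from skeletal muscle, where it binds actin. It read 7.74, 7.56 and 7.61 in WT and 7.58, 7.69 and 7.60 in TG-17. The groups overlapped, and the log2 difference of -0.014 (SE 0.066, 95% interval -0.17 to 0.15) became 0.038 when each array was centred on its median. The CArG boxes shown above thus lie in the promoters of Fhl1, with groups apart, and of Fhl2, with groups that overlap.

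**Figure D2:**
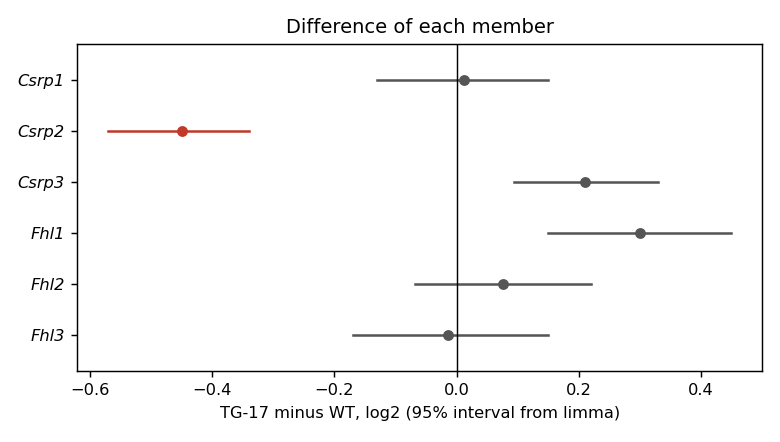
The log2 difference, TG-17 minus WT, of each member as a point with its 95% interval from limma. The interval of Csrp2 (-0.57 to -0.34) lies below 0, those of Csrp3 and Fhl1 lie above 0, and those of Csrp1, Fhl2 and Fhl3 span 0.

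To set the members against each other, the log2 value of Csrp2 minus that of another member was taken within each mouse, which removes what an array shares. The size of such a value depends on the probes, and only its change between the groups is read. Against Csrp3 it was -3.27 to -3.25 in WT and -3.94 to -3.92 in TG-17, a change of -0.67 with SDs of 0.015 and 0.014. Against Fhl1 it was -0.62 to -0.52 in WT and -1.38 to -1.27 in TG-17, a change of -0.75. The groups were apart for both. The changes against Csrp1, Fhl2 and Fhl3 were -0.47, -0.53 and -0.44, and these groups too were apart. Each of the 5 comparisons had a two-sided exact permutation p of 0.10 (adjusted over the 5, 0.10), the smallest that 3 mice against 3 can give. The fall of Csrp2, the member called, enters all 5 comparisons. They largely restate that fall and are not separate support for it.

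The wider LIM family gave no call. Of 48 listed genes 47 were measured, and 0 passed B above 0 in either direction. At an unadjusted p under 0.05, 4 were higher and 1 lower in TG-17 (8.51% and 2.13%, against 6.97% and 8.5% of all probe sets). In 14 genes (29.8%) the TG-17 mice were all above and in 2 (4.26%) all below the WT mice, against 12.2% and 13.6% of the 19938 genes. The median log2 difference was 0.07, against -0.018 over the 19938 genes. It depended on the scaling, at 0.121 after centring and 0.028 after quantile normalization, where the median of all probe sets was 0.037 and -0.003.

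The 4 with the smallest p were Ablim1, Lmcd1, Mical2 and Pdlim2. Ablim1, an actin-binding LIM protein, read 10.78, 10.83 and 10.89 in WT and 10.99, 11.05 and 11.03 in TG-17, a log2 difference of 0.19 (SE 0.054, limma adjusted p 0.248). All TG-17 mice were above all WT mice. Pdlim2, a PDZ and LIM protein, read 6.98, 7.02 and 7.12 in WT and 6.88, 6.86 and 6.88 in TG-17, a log2 difference of -0.17 (SE 0.056, limma adjusted p 0.274). Here all TG-17 mice were below. Lmcd1, a LIM protein that restrains GATA6, had a difference of 0.18 (SE 0.059), and Mical2, an enzyme that oxidises actin, one of 0.21 (SE 0.074). The other Fhl genes, Fhl4 and Fhl5, named here after their values were seen, had differences of -0.10 (SE 0.15) and 0.092 (SE 0.10), each with overlapping groups.

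Partners and regulators of the Csrp and Fhl proteins gave no call either, and their larger differences were upward. Of 45 listed genes 41 were measured, and 0 passed B above 0. At an unadjusted p under 0.05, 8 were higher (19.5%, against 6.97% of all probe sets) and 0 lower (against 8.5%). In 16 (39.0%) the TG-17 mice were all above and in 4 (9.76%) all below WT, against 12.2% and 13.6% of the 19938 genes. The median log2 difference was 0.027, or 0.078 after centring and 0.015 after quantile normalization. Under 6 of the 17 alternatives 1 to 3 of them passed, Ankrd1 each time.

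Ankrd1, a stress-responsive ankyrin repeat protein that binds titin, read 12.94, 12.75 and 12.69 in WT and 13.25, 13.26 and 13.20 in TG-17. The groups were apart, with a log2 difference of 0.44 (SE 0.076, 1.36-fold), a limma adjusted p of 0.220 and B at -0.20. Myocd, the heart and smooth muscle coactivator of SRF, read 9.65, 9.50 and 9.85 in WT and 10.07, 10.12 and 10.02 in TG-17, a difference of 0.41 (SE 0.095, 1.32-fold, limma adjusted p 0.227). Its groups were apart too. Myoz2, a Z-disc protein that binds calcineurin, had a difference of 0.25 (SE 0.057), and Tead1, the factor that binds CATTCC, one of 0.19 (SE 0.047), both with groups apart. Srf, Mef2c and the Csrp3 partner Tcap were named after their values were seen. Their differences were 0.10 (SE 0.057), -0.036 (SE 0.053) and -0.16 (SE 0.13).

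**Figure D3:**
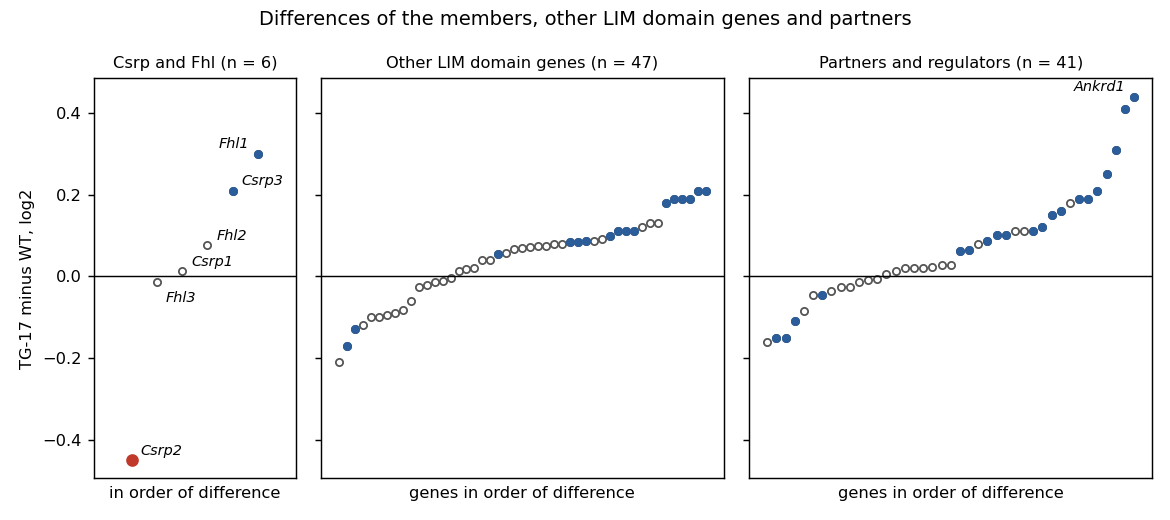
The log2 difference, TG-17 minus WT, of each gene in 3 panels: the 6 members, 47 other LIM domain genes and 41 partners and regulators, each in order of difference. The red point is the gene at B above 0, filled blue points are genes whose groups do not overlap, and open points are genes whose groups overlap. Csrp2 lies at -0.45, below every other gene drawn, and Ankrd1 at 0.44 is the highest.

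Since Csrp1 and Csrp2 are genes of smooth muscle, the markers of that cell type were read beside them. Of 14 smooth muscle markers 0 passed B above 0, and 3 were lower at an unadjusted p under 0.05 (21.4%, against 8.5% of all probe sets) and 0 higher. In 5 (35.7%, against 13.6% of the 19938 genes) the TG-17 mice were all below the WT mice. In 1 (7.14%, against 12.2%) they were all above. Of the 14 means 9 were lower and 5 higher in TG-17, and the median log2 difference was -0.10, or -0.049 after centring and -0.065 after quantile normalization. Their linear intensities summed to 10764 to 11611 per WT mouse and to 9870 to 10331 per TG-17 mouse, without overlap. Acta2 made up 787 of the difference of 1065 between the group means, and without it the sums were 5232 to 5651 and 5187 to 5226. Myh11, smooth muscle myosin, read 9.61, 9.46 and 9.60 in WT and 9.24, 9.33 and 9.17 in TG-17, a difference of -0.31 (SE 0.070, limma adjusted p 0.225). Acta2, smooth muscle actin, read 12.35, 12.49 and 12.54 in WT and 12.33, 12.21 and 12.19 in TG-17, a difference of -0.22 (SE 0.073). Both were lower in all TG-17 mice. Cnn1 and Tagln, actin-binding proteins of the same cells, had differences of -0.43 (SE 0.16) and -0.18 (SE 0.097) with overlapping groups. The 5 markers with a higher mean, named after their values were seen, were Aoc3 (0.13), Smtn (0.076, all TG-17 mice above all WT mice), Synpo2 (0.016), Itga8 (0.013) and Mylk (0.002). The part of these markers in the Csrp2 result was not tested. In such bulk tissue, fewer cells of a type and less RNA per cell cannot be told apart.

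**Figure D4:**
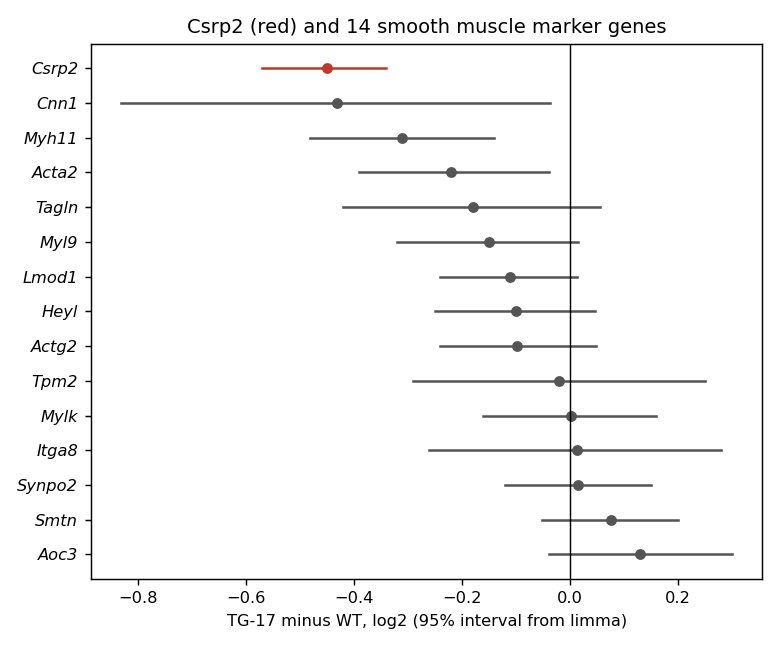
The log2 difference, TG-17 minus WT, of 14 smooth muscle markers with their 95% intervals from limma, beside Csrp2. Of the 14 markers 9 lie below 0, from Cnn1 at -0.43 upward, and no marker passed B above 0.

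Atrial markers also moved with the groups. Of 11 such genes 2 passed B above 0, the atrial myosin light chains Myl7, lower by 0.64 (SE 0.097) on the log2 scale, and Myl4, lower by 0.66 (SE 0.10). At an unadjusted limma p under 0.05, 7 were lower (63.6%, against 8.5% of all probe sets) and 1 higher, Kcna5 at 0.38 (9.09%, against 6.97%). Of the 11 means 10 were lower. In 7 genes the TG-17 mice were all below and in 1 all above the WT mice (63.6% and 9.09%, against 13.6% and 12.2% of the 19938 genes). The list's summed intensity was 5460 to 6202 in WT and 4768 to 4953 in TG-17. Of 11 skeletal muscle markers 0 passed, 9 means were lower, and the median difference was -0.11 (-0.054 after centring, -0.065 after quantile normalization), with Myod1 at -0.19 and Myh4 at -0.18 having the smallest p. Their mean log2 levels were 5.26 to 7.92, against array medians of 6.89 to 6.95, so several are dim. At an unadjusted limma p under 0.05, 3 were lower (27.3%, against 8.5% of all probe sets) and 0 higher (against 6.97%). In 6 (54.5%, against 13.6% of the 19938 genes) the TG-17 mice were all below the WT mice. In 0 (against 12.2%) they were all above. No gene passed among 10 pericyte, 12 fibroblast, 12 endothelial, 11 leukocyte and 13 ventricular markers, with medians of -0.029, 0.028, 0.02, 0.006 and -0.013. The ventricular list also holds genes of heart muscle at large, such as Tnnt2, so its median does not describe the ventricle alone. The pericyte, fibroblast, endothelial and ventricular medians took the other sign when arrays were rescaled by their medians or by quantiles. The pairs of genes with the smallest p in these lists had log2 differences of 0.24 for Abcc9 and -0.23 for Vtn (pericytes), 0.17 for Lum and 0.12 for Dcn (fibroblasts), 0.23 for Flt1 and 0.18 for Robo4 (endothelium), -0.27 for Cd3e and 0.27 for Lyz2 (leukocytes), and 0.12 for Myl2 and -0.11 for Tnnt2 (ventricle). Ventricular Myl2 read 13.59 to 13.67 in WT and 13.73 to 13.77 in TG-17, so the defining marker of the labelled tissue was present in all 6 mice. The part of the atrial markers in the results of the members was not tested.

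The genes whose values over the 6 mice were most like those of Csrp2, by the root mean square distance of centred log2 values among 19937 genes, were Dbt (0.041), Fam122b (0.048), Mrgprh (0.049), Tspan3 (0.05) and Gm11437 (0.05). All 5 were lower in TG-17 at B above 0, which follows from choosing them for their likeness to Csrp2. Dbt, a subunit of the branched-chain keto acid dehydrogenase, lay between 9.97 and 10.02 in WT and between 9.47 and 9.53 in TG-17, and the others had log2 differences of -0.43, -0.38, -0.39 and -0.40. None of the 3 nearest measured genes on either side of Csrp2 in RefSeq order passed B above 0. Zdhhc17, the next gene, had a difference of -0.12 (SE 0.080), and Osbpl8 had 0.11 (SE 0.056), with every TG-17 mouse above every WT mouse before rounding. The differences of E2f7, Nav3, Gm5136 and Bbs10 were -0.046, -0.063, -0.009 and -0.087, with overlapping groups.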

How the data were processed

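RNA of ventricles from 3 WT and 3 TG-17 mice was hybridised by the authors to 1 array per mouse. The authors deposited a log2 value for each probe set. These were made with RMA (background correction, quantile normalization and summary of probes), according to the submitters' processing notes. For the version of RMA, nothing was given in the sources used here. The mice are separate animals, and 3 arrays per group limit the precision. Groups came from the sample labels, line and age from the study's description.

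All 35556 probe sets, with 0 columns left out, were fitted with limma 3.58.1 in R 4.3.3 (lmFit, eBayes), TG-17 against WT, without covariates. A call was B above 0 with the prior share of changed probe sets at 0.01, and p was adjusted by Benjamini-Hochberg. The fit was tested on simulated data. Through the platform annotation, with symbols updated by RefSeq GRCm38.p6, 21789 probe sets had 1 gene symbol, 1621 several and 12146 none. The brightest probe set stood for a gene. RefSeq also gave gene order and sequences.

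Named are the members, Mir499, called genes or otherwise those with the smallest p (4 for gene lists, 2 for cell type lists), Acta2, Tagln, Myh11 and Cnn1 whatever their p, and the nearest genes of Csrp2 by values and by order. The members and lists were chosen with earlier results of these data known. Alternatives were a filter at a log2 value of 6, listed probe sets only, a second quantile normalization, median centring, array weights, moderation with an intensity trend or robustly, the replicate block, a prior share of 0.05, adjusted p under 0.05 as the call, the mean over probe sets of a gene, and leaving out each mouse.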

Additional observations from a re-analysis of the deposited data

How the results depend on the processing

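The log2 difference of Csrp2 was -0.49 to -0.40 under 17 alternatives, and -0.47 to -0.44 when 1 mouse was left out. Its call was lost with the mouse number as a replicate block (-0.45, B -0.13, limma adjusted p 0.318), with an adjusted p under 0.05 as the call (-0.45, adjusted p 0.167) and without TG-17 replicate 2 (-0.46, B -0.11). Over all alternatives its adjusted p was 0.0266 to 0.401. The labels do not say whether the mouse numbers pair the mice. Same-numbered deviations correlated at 0.024, -0.0 and 0.057 and differently numbered ones at -0.057 to 0.034, which does not settle it. Csrp3 (0.21) and Fhl1 (0.30) passed with the intensity trend and with an prior share of 0.05, and leaving out a mouse gave 0.19 to 0.23 and 0.26 to 0.34. Members called, 1 of 6, became 3 under each of these settings, 0 with the replicate block, 0 at an adjusted p under 0.05, and 0 to 1 when a mouse was left out. Csrp1 reversed to -0.043 after quantile normalization and was -0.027 to 0.035 with a mouse left out. Fhl3 reversed to 0.038 after centring and 0.012 after quantile normalization, and was -0.05 to 0.036 with a mouse left out. Partners called, 0 of 41, became 1 with the filter on dim probe sets, 1 with listed probe sets only, 1 with centring, 3 with the trend, 2 with the share of 0.05, and 0 to 1 with a mouse left out (1 without WT replicate 1). Over all 35556 probe sets 130 calls became 287, 714 and 69 with the trend, the share of 0.05 and the block, 2 at an adjusted p under 0.05, and 29 to 112 with a mouse left out. The causes were not tested. All 17 alternatives kept Fhl2 on its side and the other LIM genes at 0 calls. Only rescaling, array weights and leaving out a mouse could move a member's log2 difference. The other settings change the spread, the call or the set of probe sets, and each member had 1 probe set. The 5 differences of Csrp2 to another member kept their direction under the 9 alternatives run. Of these, centring and the mean over probe sets could not change them. Signal over background was not analysed here, so how well dim probe sets are measured is unknown.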
